A study of Mus musculus with 10 samples.

Results

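The genes described here are 53 mouse genes whose products copy the genome or supply the nucleotides for it, chosen by name from the replication pathway and found by their Ensembl identifiers among the 29527 genes of the table. All 53 passed the filter on low values, which asked for a mean log2 value of 3.32 or more (10 when unlogged), as did 17268 of the 29527 genes. The lowest of them, Chaf1b, had a mean of 3.33. Bulk RNA was measured in dissected intermediate lobes (IL) of the pituitary of mice aged 2 to 3 months. There were 4 WT samples, 3 p27-/- samples, which lack the CDK inhibitor P27 (Cdkn1b), and 3 p27-/-;Sox2+/- samples, which lack P27 and carry 1 functional copy of the stem cell factor gene Sox2. Both mutant groups thus share the loss of P27, which is constitutive and present in every cell of the body. Male and female mice of a mixed background were used.

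Before a cell divides, origins of replication are licensed by loading of the MCM2-7 helicase, which the origin recognition complex, CDC6 and CDT1 carry out in G1. In S phase the helicase is activated by CDC45 and GINS, polymerases copy both strands behind a sliding clamp, and ribonucleotide reductase keeps up the supply of deoxynucleotides. P27 inhibits cyclin-CDK complexes and so holds cells in G1, and many replication genes are known targets of the E2F factors, which CDK activity releases. The IL consists mainly of melanotrophs, endocrine cells that make POMC peptides and that form tumours in mice without P27.

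The label of the tissue was checked against markers. Pomc had a mean deposited log2 value of 18.55 (18.00 to 19.00 over the 10 samples) and Pax7, which specifies melanotrophs, of 11.73 (11.45 to 11.97). Markers of the adjoining lobes were present too. The mean of 7 anterior lobe markers, centred over the samples, was 1.68 in WT replicate 2, between -0.29 and 0.13 in the other WT samples, between -0.79 and 0.60 in p27-/- and between -0.72 and 0.04 in p27-/-;Sox2+/- samples. For 6 posterior lobe markers the range was -0.56 to 0.87 in WT, -0.40 to -0.09 in p27-/- and -0.77 to 0.65 in p27-/-;Sox2+/- samples. Cdkn1b itself, given as 1 value for the whole gene, differed from WT by -0.43 on the log2 scale in p27-/- (adjusted p = 0.047) and of -0.72 in p27-/-;Sox2+/- samples (adjusted p = 0.00854). Sox2 differed from WT by -0.17 (adjusted p = 0.459) and by -0.46 (adjusted p = 0.0811).

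Replication genes were higher in p27-/- than in WT IL. Of the 53 genes, 11 rose (limma, adjusted p under 0.05; 20.8%, against 3.16% of all tested genes) and 0 fell (against 4.62% of all tested genes). The genes that rose were Rrm2, Ticrr, Tipin, Mcm2, Orc6, Mcm3, Clspn, Rfc4, Rfc3, Rrm1 and Mcm6, by log2 differences of 0.34 to 0.69. The difference was above 0 in 50 of the 53 (94.3%, against 51.6% of all tested genes), and the median difference was 0.274, against 0.0087 over all tested genes. In 20 of the 53 every p27-/- sample was above every WT sample (37.7%, against 10.2% of all tested genes), and in 1, Orc1, every p27-/- sample was below (against 10.3%). As the values come from whole tissue, a larger share of cells in S phase and more RNA per cell cannot be told apart.

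In p27-/-;Sox2+/- IL fewer of the 53 genes passed the test against WT. Ticrr, Clspn and Tipin rose against WT (3 of 53, 5.66%, against 0.828% of all tested genes) and 0 fell (against 1.88%). The difference from WT was above 0 in 43 genes (81.1%, against 52.1%), with a median of 0.198, against 0.0098 over all tested genes. In 17 genes every p27-/-;Sox2+/- sample was above every WT sample (32.1%, against 7.02% of all tested genes), and in 0 was every one below (against 8.01%). Both comparisons use the same 4 WT samples.

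**Figure D1:**
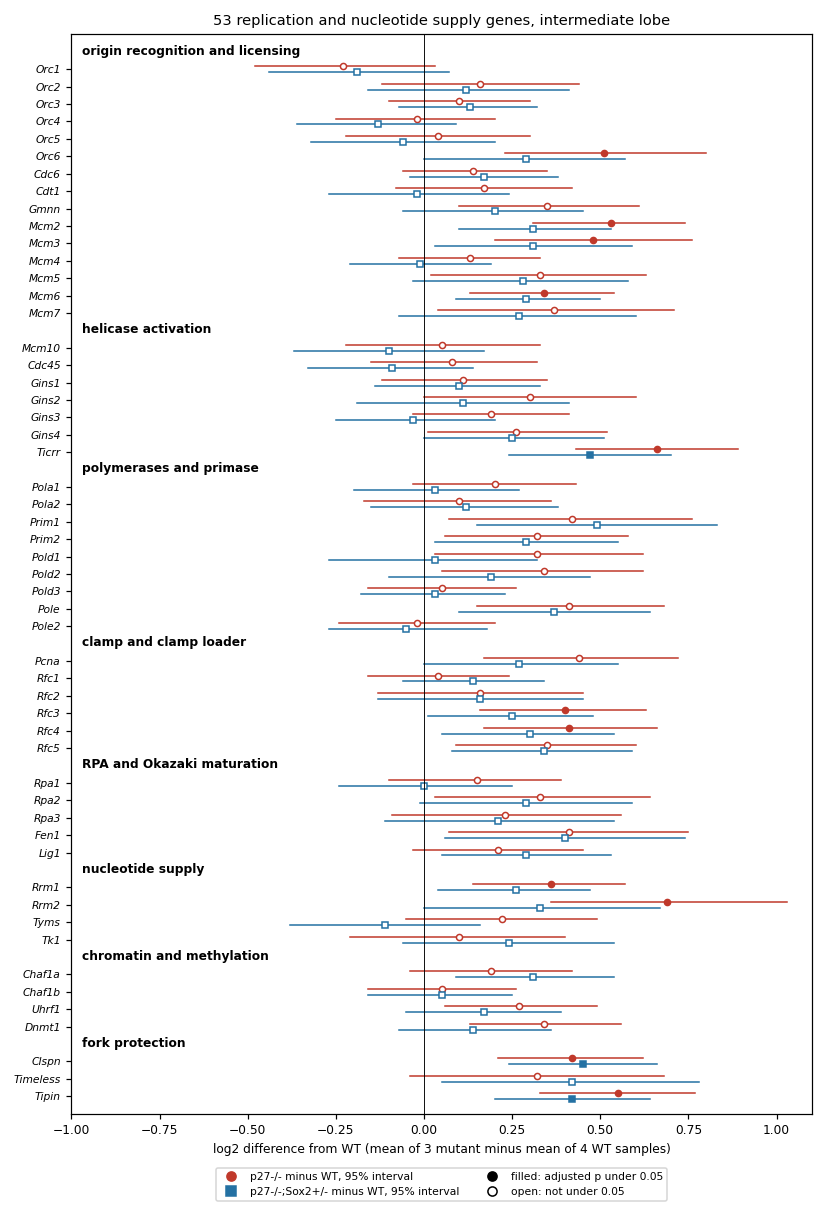
Log2 difference from WT (x axis) of each of the 53 genes, by role, in p27-/- (red circles) and p27-/-;Sox2+/- samples (blue squares), with 95% intervals; filled symbols passed an adjusted p of 0.05. Most red circles lie right of 0, with Rrm2 at 0.69 and Orc1 at -0.23 as the extremes, and the 3 filled blue squares are Ticrr, Clspn and Tipin.

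No difference between the mutants passed the threshold for any of the 53 genes (0 called by limma, against 0.145% of all tested genes), and 2 genes, Tyms and Rrm2, had an unadjusted p under 0.05 (3.77%, against 6.65% of all tested genes). The difference of p27-/-;Sox2+/- minus p27-/- was below 0 in 42 of the 53 (79.2%, against 51.4%), with a median of -0.095, against -0.0044 over all tested genes. It ranged from -0.36 for Rrm2 to 0.14 for Tk1, and the 95% intervals of the 53 genes together spanned -0.72 to 0.48. In 33 of the 53 genes the p27-/-;Sox2+/- mean lay between a lower WT and a higher p27-/- mean. Over all tested genes it lay between the WT and p27-/- means, in either direction, in 45.4%. In 11 of the 53 it was at or above the p27-/- mean and in 10 it was below the WT mean, Orc1 being in both of these groups. This order uses the same WT and p27-/- samples as the comparisons above. The mean over the 53 genes, relative to WT, was 0.01, 0.05, -0.05 and -0.01 in the WT samples, 0.26, 0.22 and 0.30 in the p27-/- samples and 0.17, 0.19 and 0.18 in the p27-/-;Sox2+/- samples. The 3 genotypes did not overlap in this mean, with the p27-/-;Sox2+/- samples in the middle and close to each other.

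The count of 11 depended on single libraries. It was 6 without WT replicate 3, 4 without WT replicate 4, 6, 4 and 3 without p27-/- replicates 1, 2 and 3, and 5 without p27-/-;Sox2+/- replicate 2, whereas the median difference stayed between 0.237 and 0.287 over all 10 fits with a library left out. Mcm2, Ticrr and Tipin passed in each of these fits. Rrm2 lost its call without WT replicate 4 and without p27-/- replicate 3 (highest adjusted p = 0.0822), and Clspn without p27-/- replicates 2 and 3 (highest adjusted p = 0.111). Orc6, Mcm3, Mcm6, Rfc3, Rfc4 and Rrm1 each lost theirs without WT replicate 4, without each single p27-/- replicate and without p27-/-;Sox2+/- replicate 2. Their highest adjusted p-values were 0.138 for Rfc3 to 0.196 for Rrm1. Some lost it in further fits: of the 10, Orc6 and Mcm3 passed in 4 each, Rfc3 in 3, Rfc4 and Rrm1 in 1 each and Mcm6 in 0. The count of 3 in p27-/-;Sox2+/- samples was 1 without WT replicate 3, and 0 without WT replicate 4 or any of the 3 p27-/-;Sox2+/- replicates. Without WT replicate 2, the sample with the high anterior lobe markers, the counts were 9 and 3.

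Promoters are shown for the 3 genes with the smallest p-values for p27-/- over WT, and the 2 with the largest, among the 44 of 53 genes with a window in the RefSeq promoter table (GRCm38.p6). Each runs from 220 bases before to 30 bases after the annotated start, 5′ to 3′ on the gene's strand. Capitals mark the E2F motif (TTTGGCGC, TTTCCCGC, TTTGCCGC or TTTCGCGC) and the CCAAT box, the motif of the factor NF-Y, on either strand.
Ticrr (chr7:79659976-79660225, plus strand): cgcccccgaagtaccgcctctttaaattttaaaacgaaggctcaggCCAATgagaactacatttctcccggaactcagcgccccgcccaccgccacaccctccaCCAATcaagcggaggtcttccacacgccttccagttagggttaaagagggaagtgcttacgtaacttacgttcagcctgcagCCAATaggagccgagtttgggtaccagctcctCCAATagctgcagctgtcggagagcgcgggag
Mcm2 (chr6:88898751-88899000, minus strand): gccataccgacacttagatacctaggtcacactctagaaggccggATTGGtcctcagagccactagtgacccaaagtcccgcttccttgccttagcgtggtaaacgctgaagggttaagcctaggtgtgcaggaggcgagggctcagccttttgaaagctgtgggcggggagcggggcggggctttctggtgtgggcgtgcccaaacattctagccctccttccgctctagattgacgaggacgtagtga
Rrm2 (chr12:24708034-24708283, plus strand): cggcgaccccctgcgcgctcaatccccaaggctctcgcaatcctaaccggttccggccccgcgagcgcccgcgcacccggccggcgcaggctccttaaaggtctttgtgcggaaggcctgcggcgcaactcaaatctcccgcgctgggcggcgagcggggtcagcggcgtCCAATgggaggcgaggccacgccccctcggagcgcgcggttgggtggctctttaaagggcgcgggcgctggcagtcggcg
Orc4 (chr2:48950205-48950454, minus strand, the farthest upstream of its 3 windows): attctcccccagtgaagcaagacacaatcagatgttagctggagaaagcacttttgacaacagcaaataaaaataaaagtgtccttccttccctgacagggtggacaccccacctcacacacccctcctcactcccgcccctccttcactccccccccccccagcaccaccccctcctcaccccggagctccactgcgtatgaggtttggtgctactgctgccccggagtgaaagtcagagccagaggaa
Pole2 (chr12:69228161-69228410, minus strand): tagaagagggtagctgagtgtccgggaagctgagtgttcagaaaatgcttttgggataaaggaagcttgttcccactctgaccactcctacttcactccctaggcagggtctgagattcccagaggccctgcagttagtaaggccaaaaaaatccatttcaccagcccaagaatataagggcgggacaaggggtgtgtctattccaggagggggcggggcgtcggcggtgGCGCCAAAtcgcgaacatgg
The Ticrr stretch holds 4 CCAAT boxes, those of Mcm2 and Rrm2 hold 1 each, and those of Orc4 and Pole2 hold 0. The same Orc4 window has a CCAAT box at bases -248 to -244, before the printed stretch. An E2F motif was found in the Pole2 stretch alone, at bases 10 to 17 counted from 0 at the first transcribed base.

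Over whole windows of 300 bases, the E2F motif was in 18 of the 55 windows of these genes (32.7%), in 2.26% of all 32851 windows in the table, and in 3.40% of the 10806 windows whose GC content lay between the quartiles of the windows described here. Counted by gene, 4 of the 10 genes that rose in p27-/- and have a window held the motif (Mcm3, Mcm6, Rfc3 and Clspn), as did 14 of the 34 that did not pass (41.2%). Cdc6, Orc1, Mcm5, Mcm7 and Dnmt1 were among the latter. A CCAAT box was in 58.2% of the windows of these genes, in 37.4% of all windows and in 38.1% of those of similar GC content. By gene it was in 9 of the 10 that rose (all but Rfc4) and in 19 of the 34 that did not pass. Of all genes with a window 41.1% had it. A CHR element (TTTGAA or TTCGAA), known from genes of G2 and mitosis, was in 14.5% of the windows and in 19.2% of all windows. In the 10806 windows of similar GC content it was in 12.8%. No motif contains another, although E2F matches can overlap on opposite strands, as in Mcm5 and Mcm6. A match of letters shows no binding, and these shares were not tested.

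**Figure D2:**
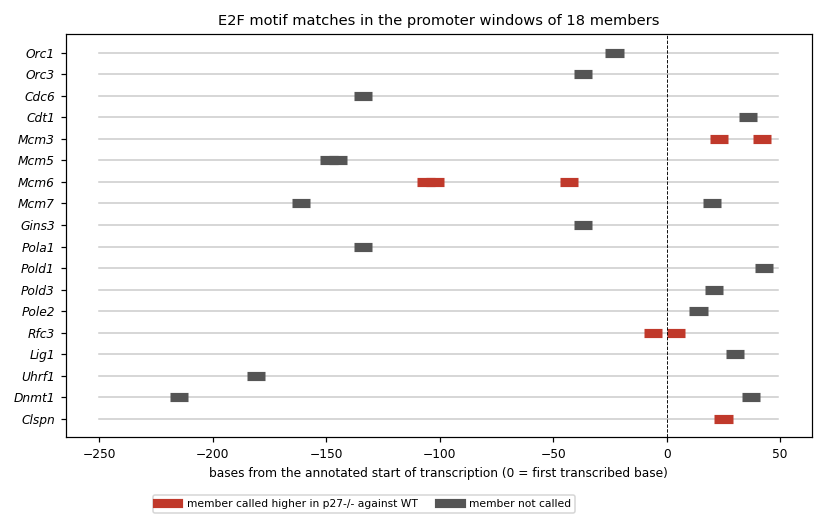
Positions of E2F motif matches (bars) in bases from the annotated start of transcription (x axis) for the 18 genes with a match, each grey line being the 300-base range. Genes that rose in p27-/- against WT (red: Mcm3, Mcm6, Rfc3 and Clspn) stand among 14 that did not pass (grey).

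Of 15 licensing genes, 4 rose in p27-/- (against 3.16% of all tested genes). In p27-/-;Sox2+/- samples 0 passed (against 0.828% higher and 1.88% lower), a count close to those shares. Those that rose were 3 of the 6 MCM2-7 helicase subunits (Mcm2, Mcm3 and Mcm6) and 1 of the 6 subunits of the origin recognition complex (Orc6). Mcm2, a subunit of the replicative helicase, had log2 values of 7.38, 7.30, 7.20 and 7.19 in WT, 7.85, 7.87 and 7.67 in p27-/- and 7.59, 7.62 and 7.54 in p27-/-;Sox2+/- samples. The 3 genotypes did not overlap. In p27-/- it was higher by 0.53 (standard error 0.10, adjusted p = 0.00797), or 1.44-fold on the deposited scale. In p27-/-;Sox2+/- samples the difference was 0.31 (standard error 0.10, adjusted p = 0.112). Fold changes here and below are unlogged differences of the deposited values. As the log2 transformation is not known, they may differ from ratios of RNA amount. Mcm3, another subunit, had values of 5.49, 5.57, 5.57 and 5.29 in WT, 5.94, 5.79 and 6.17 in p27-/- and 5.65, 5.95 and 5.77 in p27-/-;Sox2+/- samples, a difference of 0.48 (standard error 0.13, adjusted p = 0.039) and of 0.31 (standard error 0.13, adjusted p = 0.222). All mutant samples were above WT and the mutants overlapped each other. Mcm6 had values of 7.71, 7.83, 7.69 and 7.92 in WT, 8.01, 8.18 and 8.17 in p27-/- and 8.04, 8.10 and 8.11 in p27-/-;Sox2+/- samples, again with both mutants above WT. Its differences were 0.34 (standard error 0.10, adjusted p = 0.0481) and 0.29 (standard error 0.10, adjusted p = 0.120).

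The other helicase subunits did not pass the test. Mcm4, Mcm5 and Mcm7 differed from WT by 0.13, 0.33 and 0.37 in p27-/- (adjusted p = 0.421, 0.176 and 0.161) and by -0.01, 0.28 and 0.27 in p27-/-;Sox2+/- samples. Averaged over the 6 subunits, the complex lay at -0.04 to 0.07 in WT, 0.30 to 0.43 in p27-/- and 0.19 to 0.33 in p27-/-;Sox2+/- samples relative to the WT mean. Both mutants were thus apart from WT, and they overlapped each other.

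Within the origin recognition complex, which marks origins, Orc6 passed in p27-/- and the other 5 subunits did not. Orc6 had values of 7.81, 7.78, 7.29 and 7.75 in WT, 8.39, 8.02 and 8.11 in p27-/- and 7.97, 7.94 and 7.92 in p27-/-;Sox2+/- samples, with 3 genotypes that did not overlap and 1 low WT sample, replicate 3. The p27-/- mean was higher by 0.51 (standard error 0.13, adjusted p = 0.0346), and the p27-/-;Sox2+/- mean differed by 0.29 (standard error 0.13, adjusted p = 0.284). Orc1, an ATPase subunit, went the other way, from 5.21, 5.23, 5.52 and 5.18 in WT to 5.13, 4.95 and 5.10 in p27-/- and 5.01, 5.26 and 5.02 in p27-/-;Sox2+/- samples. The p27-/- samples all lay below WT, yet its differences of -0.23 (standard error 0.12, adjusted p = 0.262) and -0.19 (standard error 0.12, adjusted p = 0.441) did not pass. Orc4 had the largest p of the licensing genes, with values of 8.78, 9.14, 9.01 and 8.88 in WT, 8.88, 8.94 and 8.98 in p27-/- and 8.68, 8.79 and 8.99 in p27-/-;Sox2+/- samples, which overlapped throughout (differences of -0.02 and -0.13, standard error 0.10 each, adjusted p = 0.926 and 0.546). Orc2, Orc3 and Orc5 differed from WT by 0.16, 0.10 and 0.04 in p27-/-, none past the threshold. The mean of the 6 subunits overlapped between genotypes, at -0.09 to 0.12 in WT, 0.03 to 0.18 in p27-/- and -0.08 to 0.11 in p27-/-;Sox2+/- samples.

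The loaders and their inhibitor did not pass either. Cdc6 and Cdt1, which bring the helicase to origins, differed from WT by 0.14 and 0.17 in p27-/- (adjusted p = 0.390 and 0.408) and by 0.17 and -0.02 in p27-/-;Sox2+/- samples. Gmnn (geminin), which blocks CDT1 after origins have fired, had a difference of 0.35 (standard error 0.12, adjusted p = 0.0875) in p27-/-, where every sample was above WT, and of 0.20 in p27-/-;Sox2+/- samples (adjusted p = 0.413).

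Among 7 genes of helicase activation 1 rose, Ticrr, in both mutants (against 3.16% of all tested genes in p27-/- and 0.828% in p27-/-;Sox2+/- samples). Ticrr (treslin), which lets CDK activity start the loading of CDC45, had values of 4.45, 4.53, 4.33 and 4.51 in WT, 4.99, 5.05 and 5.32 in p27-/- and 4.97, 4.87 and 4.94 in p27-/-;Sox2+/- samples. The genotypes did not overlap, and the group means were 4.46 ± 0.09 (SD, n = 4), 5.12 ± 0.17 (SD, n = 3) and 4.93 ± 0.05 (SD, n = 3). The difference was 0.66 in p27-/- (standard error 0.11, adjusted p = 0.00334), the smallest p of the 53 genes and a 1.58-fold change on the deposited scale. In p27-/-;Sox2+/- samples it was 0.47 (standard error 0.11, adjusted p = 0.0318). Mcm10, which helps the helicase start, had the largest p of this role, with 3.68, 3.91, 4.23 and 3.58 in WT, 3.86, 3.90 and 3.96 in p27-/- and 3.80, 3.75 and 3.71 in p27-/-;Sox2+/- samples. All mutant values lay within the WT range (differences of 0.05 and -0.10, standard error 0.13 each, adjusted p = 0.834 and 0.735). Cdc45 differed from WT by 0.08 and -0.09. The 4 GINS subunits, Gins1 to Gins4, had differences of 0.11, 0.30, 0.19 and 0.26 in p27-/- and of 0.10, 0.11, -0.03 and 0.25 in p27-/-;Sox2+/- samples, and none passed. Their mean was at -0.06 to 0.09 in WT, 0.20 to 0.24 in p27-/- and 0.05 to 0.16 in p27-/-;Sox2+/- samples, so that the p27-/- samples stood above both other groups. All 7 genes of this role were lower in p27-/-;Sox2+/- than in p27-/- samples, by -0.01 to -0.22, without a call.

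Of 3 fork protection genes, Tipin and Clspn rose in each mutant (against 3.16% of all tested genes in p27-/- and 0.828% in p27-/-;Sox2+/- samples). Tipin, whose product with TIMELESS holds the polymerases to the helicase, had values of 7.67, 7.68, 7.40 and 7.60 in WT, 8.10, 8.08 and 8.24 in p27-/- and 7.98, 7.94 and 8.11 in p27-/-;Sox2+/- samples. Every mutant sample was above every WT sample. The difference was 0.55 in p27-/- (standard error 0.10, adjusted p = 0.00726), a 1.47-fold change on the deposited scale. In p27-/-;Sox2+/- samples it was 0.42 (standard error 0.10, adjusted p = 0.0444). Clspn (claspin), an adaptor that passes the ATR checkpoint signal to CHK1 and sets fork speed, had values of 4.26, 4.37, 4.30 and 4.32 in WT, 4.58, 4.75 and 4.85 in p27-/- and 4.84, 4.76 and 4.69 in p27-/-;Sox2+/- samples. Its WT samples were tight and both mutants lay above them by similar amounts, 0.42 (standard error 0.10, adjusted p = 0.0213) and 0.45 (standard error 0.10, adjusted p = 0.0254). The difference between the mutants was 0.03, with a 95% interval of -0.19 to 0.26. Timeless had values of 6.88, 7.12, 7.75 and 7.49 in WT, 7.73, 7.47 and 7.70 in p27-/- and 7.74, 7.68 and 7.76 in p27-/-;Sox2+/- samples. Its WT samples spread over most of the range of all samples, and the differences of 0.32 (standard error 0.17, adjusted p = 0.263) and 0.42 (standard error 0.17, adjusted p = 0.209) did not pass. The mean of the 3 genes was -0.13 to 0.08 in WT, 0.36 to 0.53 in p27-/- and 0.39 to 0.45 in p27-/-;Sox2+/- samples.

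Ribonucleotide reductase accounted for the calls among 4 nucleotide supply genes, of which 2 rose in p27-/- (against 3.16% of all tested genes). In p27-/-;Sox2+/- samples 0 passed (against 0.828% higher and 1.88% lower), a count close to those shares. Rrm2, its small subunit and the one made in S phase, had values of 4.03, 4.08, 3.93 and 3.89 in WT, 4.61, 4.31 and 5.11 in p27-/- and 4.54, 4.15 and 4.24 in p27-/-;Sox2+/- samples. Both mutants lay above WT, and p27-/- replicate 3 was well above all other samples. The difference was 0.69 in p27-/- (standard error 0.16, adjusted p = 0.019), a 1.62-fold change on the deposited scale. In p27-/-;Sox2+/- samples it was 0.33 (standard error 0.16, adjusted p = 0.289). Rrm1, the large subunit, had values of 8.34, 8.57, 8.28 and 8.47 in WT, 8.63, 8.79 and 8.89 in p27-/- and 8.68, 8.57 and 8.76 in p27-/-;Sox2+/- samples, with differences of 0.36 (standard error 0.10, adjusted p = 0.0465) and 0.26 (standard error 0.10, adjusted p = 0.194). Tk1, the salvage enzyme thymidine kinase, had 6.73, 6.72, 6.44 and 6.67 in WT, 6.56, 6.85 and 6.79 in p27-/- and 7.18, 6.78 and 6.67 in p27-/-;Sox2+/- samples, which overlapped (differences of 0.10 and 0.24, standard error 0.14 each, adjusted p = 0.724 and 0.402). Tyms, thymidylate synthase, differed from WT by 0.22 and -0.11 (adjusted p = 0.315 and 0.707). Between the mutants Tyms and Rrm2 had the smallest p-values of the 53 genes, with differences of -0.32 (95% interval -0.61 to -0.03, adjusted p = 0.651) and -0.36 (standard error 0.17, adjusted p = 0.743).

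**Figure D3:**
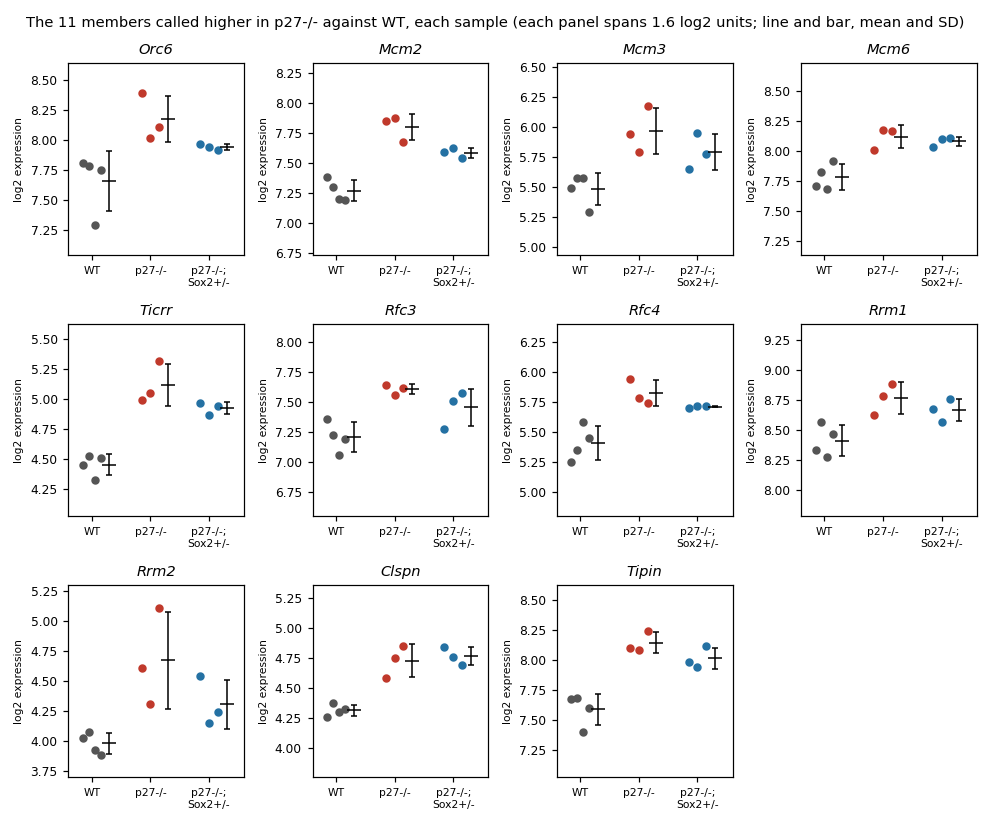
Deposited log2 expression (y axis) of the 11 genes that rose in p27-/- against WT, in each WT (grey), p27-/- (red) and p27-/-;Sox2+/- sample (blue), with the mean and SD of each group in black. No p27-/- sample overlaps WT in any panel, and Rfc3 is the panel in which a p27-/-;Sox2+/- sample (7.28) lies within the WT range (7.06 to 7.36).

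The clamp and its loader rose in part. Rfc3 and Rfc4, subunits of replication factor C, which loads PCNA onto DNA, passed in p27-/- (2 of 6 genes, against 3.16% of all tested genes). In p27-/-;Sox2+/- samples 0 of the 6 passed (against 0.828% higher and 1.88% lower), a count close to those shares. Rfc3 had values of 7.36, 7.23, 7.06 and 7.19 in WT, 7.64, 7.56 and 7.62 in p27-/- and 7.28, 7.51 and 7.58 in p27-/-;Sox2+/- samples (differences of 0.40 and 0.25, standard error 0.11 each, adjusted p = 0.0425 and 0.259). Rfc4 had values of 5.25, 5.35, 5.58 and 5.45 in WT, 5.94, 5.78 and 5.74 in p27-/- and 5.70, 5.71 and 5.71 in p27-/-;Sox2+/- samples (differences of 0.41 and 0.30, standard error 0.11 each, adjusted p = 0.0435 and 0.180). Rfc4 separated the 3 genotypes, and Rfc3 separated p27-/- from WT. Pcna, the sliding clamp, stood just outside the threshold with values of 8.83, 8.78, 8.42 and 8.64 in WT, 9.29, 8.93 and 9.11 in p27-/- and 8.75, 8.89 and 9.19 in p27-/-;Sox2+/- samples (differences of 0.44 and 0.27, standard error 0.13 each, adjusted p = 0.05002 and 0.286). Mcm6, at an adjusted p of 0.0481, stood just inside it. Rfc1, the largest subunit, had 9.10, 9.25, 9.06 and 8.93 in WT, 9.20, 9.15 and 9.03 in p27-/- and 9.21, 9.16 and 9.30 in p27-/-;Sox2+/- samples, with p27-/- within the WT range (differences of 0.04 and 0.14, standard error 0.09 each, adjusted p = 0.818 and 0.467). Rfc2 and Rfc5 differed from WT by 0.16 and 0.35 in p27-/- and by 0.16 and 0.34 in p27-/-;Sox2+/- samples. The mean of the 5 loader subunits was -0.08 to 0.06 in WT, 0.26 to 0.29 in p27-/- and 0.17 to 0.29 in p27-/-;Sox2+/- samples.

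Of 9 polymerase and primase genes 0 passed in either mutant, although 8 had a difference above 0 in each (against 51.6% and 52.1% of all tested genes). Over all tested genes 3.16% rose in p27-/- and 0.828% in p27-/-;Sox2+/- samples, so 0 of 9 is close to those shares. The role's median difference was 0.32 in p27-/- and 0.12 in p27-/-;Sox2+/- samples. Pole, the catalytic subunit of the leading strand polymerase, had the smallest p of the role, with 5.41, 5.57, 5.43 and 5.62 in WT, 5.83, 6.01 and 5.92 in p27-/- and 6.09, 5.89 and 5.66 in p27-/-;Sox2+/- samples. All mutant samples were above WT (differences of 0.41 and 0.37, standard error 0.12 each, adjusted p = 0.0575 and 0.131). Its partner subunit Pole2 had the largest p, with 3.84, 4.20, 3.96 and 4.06 in WT, 3.96, 3.85 and 4.16 in p27-/- and 3.93, 4.03 and 3.94 in p27-/-;Sox2+/- samples, all mutant values lying within the WT range (differences of -0.02 and -0.05, standard error 0.10 each, adjusted p = 0.928 and 0.856). Prim1, the catalytic primase, had the largest difference of the 53 genes in p27-/-;Sox2+/- samples, 0.49 (standard error 0.16, adjusted p = 0.117), and 0.42 in p27-/- (adjusted p = 0.127). Pold1, catalytic subunit of the lagging strand polymerase, differed from WT by 0.32 in p27-/- and 0.03 in p27-/-;Sox2+/- samples (adjusted p = 0.171 and 0.942). Pola1, Pola2, Prim2, Pold2 and Pold3 had differences of 0.05 to 0.34 in p27-/- and of 0.03 to 0.29 in p27-/-;Sox2+/- samples.

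Genes for single-strand binding and Okazaki fragments (0 of 5) and those for chromatin (0 of 4) did not pass in either mutant. Over all tested genes 3.16% rose in p27-/- and 0.828% in p27-/-;Sox2+/- samples, so these counts are close to those shares. Fen1, the nuclease that trims Okazaki fragments, had 5.88, 5.74, 5.32 and 5.28 in WT, 5.78, 5.98 and 6.12 in p27-/- and 5.82, 6.06 and 5.98 in p27-/-;Sox2+/- samples. The WT samples split into a higher and a lower pair, and the differences of 0.41 and 0.40 (standard error 0.16 each) had adjusted p-values of 0.131 and 0.197. Rpa1, the large subunit of the single-strand binding protein RPA, had 8.59, 8.47, 8.18 and 8.43 in WT, 8.53, 8.71 and 8.46 in p27-/- and 8.45, 8.54 and 8.26 in p27-/-;Sox2+/- samples (differences of 0.15 and 0.00, standard error 0.11 each, adjusted p = 0.462 and 0.997). Rpa1 thus overlapped between all groups. Rpa2, Rpa3 and Lig1, the ligase that seals the fragments, differed from WT by 0.33, 0.23 and 0.21 in p27-/- and by 0.29, 0.21 and 0.29 in p27-/-;Sox2+/- samples.

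Dnmt1, which copies DNA methylation onto the new strand, came closest among the 4 chromatin genes. Its values were 9.57, 9.52, 9.56 and 9.76 in WT, 9.79, 9.86 and 10.18 in p27-/- and 9.79, 9.71 and 9.74 in p27-/-;Sox2+/- samples, with p27-/- above WT in every sample (differences of 0.34 and 0.14, standard error 0.10 each, adjusted p = 0.0517 and 0.483). Chaf1b, a subunit of the histone chaperone CAF-1, had the largest p, with 3.52, 3.23, 3.19 and 3.25 in WT, 3.21, 3.32 and 3.52 in p27-/- and 3.31, 3.39 and 3.34 in p27-/-;Sox2+/- samples, which overlapped (differences of 0.05, standard error 0.10, in each mutant, adjusted p = 0.795 and 0.844). Uhrf1, which guides DNMT1 to hemimethylated DNA, and Chaf1a, the large CAF-1 subunit, differed from WT by 0.27 and 0.19 in p27-/- and by 0.17 and 0.31 in p27-/-;Sox2+/- samples.

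**Figure D4:**
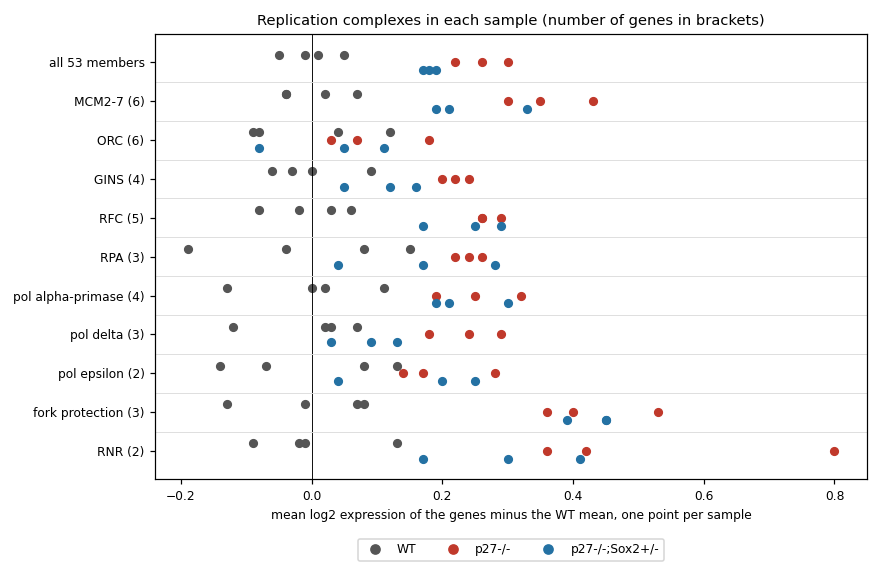
Mean log2 expression minus the WT mean (x axis) of all 53 genes and of 10 complexes in each WT (grey), p27-/- (red) and p27-/-;Sox2+/- sample (blue), 1 point per sample. In 9 of the 10 complexes every p27-/- point lies above every WT point, and the exception is ORC (0.03 to 0.18). The 9 run from polymerase epsilon (0.14 to 0.28, highest WT point 0.13) to ribonucleotide reductase (RNR, 0.36 to 0.80). Every p27-/-;Sox2+/- point lies above every WT point in 5 of the 10. Of single tested genes 10.2% and 7.02% do so. No share was taken for averages of other genes.

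Most genes under the filter varied little on the deposited scale. Over the 12259 genes with a mean under 10 on the linear scale the median SD across the 10 samples was 0.036, against 0.165 for means of 10 to 50 and 0.169 for means of 50 or more. Of the 17 replication genes with means of 10 to 50, 4 rose in p27-/- (Ticrr, Rrm2, Clspn and Rfc4), with a median difference of 0.17 over the 17. Of the 36 with higher means 7 rose, with a median of 0.32. Over all tested genes, whatever their level, 3.16% rose. On the deposited scale tested genes thus spread to a similar extent at both levels, and no replication gene lay under a mean of 10. As the log2 transformation is not known, a similar spread does not show a similar precision.

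Other genes of replication and nucleotide metabolism were read from a list of 51, of which 50 were tested. In p27-/- against WT 9 rose (against 3.16% of all tested genes) and 1 fell (against 4.62%), the median difference was 0.16 (against 0.0087), and the difference was above 0 in 41 (against 51.6% of all tested genes). Among those that rose, Dbf4, the activating subunit of the CDC7 kinase that fires origins, differed by 0.56 (adjusted p = 0.0119), Hells, a chromatin remodeller, by 0.63 (adjusted p = 0.014), and Esco2, which acetylates cohesin during S phase, by 0.52 (adjusted p = 0.00535). Topbp1, the partner of TICRR, differed by 0.33, Wdhd1, which ties the helicase to polymerase alpha, by 0.43, Atad5, which unloads PCNA, by 0.37, and Nasp, a histone chaperone, by 0.35. Ctps and Impdh2, enzymes of CTP and guanine nucleotide synthesis, completed the 9, with Ctps at 0.47. Mcm9, a relative of the MCM2-7 subunits that acts in repair, fell by 0.42 (adjusted p = 0.0491). In p27-/-;Sox2+/- samples 0 of the 50 rose (against 0.828% of all tested genes) and 0 fell (against 1.88%), counts close to those shares. The median difference there was 0.08 (against 0.0098), and the difference was above 0 in 36 (against 52.1%). Between the mutants 0 passed (against 0.145%), with Esco2 at -0.37 (adjusted p = 0.254) and Ctps at -0.41 (adjusted p = 0.474).

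Markers of dividing cells moved with the replication genes. The mean of 5 proliferation markers (Mki67, Top2a, Cdk1, Ccnb1 and Birc5), centred over the samples, was -0.76 to -0.26 in WT, 0.52 to 0.97 in p27-/- and -0.18 to 0.28 in p27-/-;Sox2+/- samples, and the 3 genotypes did not overlap. All 5 rose in p27-/- (against 3.16% of all tested genes) and 2 in p27-/-;Sox2+/- samples (against 0.828%). Mki67 rose by 2.19 in p27-/- (standard error 0.24, adjusted p = 0.000396) and by 1.36 in p27-/-;Sox2+/- samples (standard error 0.24, adjusted p = 0.0105). Both differences were beyond the 0.69 of Rrm2, the highest among the 53 replication genes. The mean level was 8.42 for Mki67 and 4.29 for Rrm2. As the log2 transformation is not known, sizes at such unlike levels may not be comparable. Between the mutants Mki67 differed by -0.83 (adjusted p = 0.382). Among other cell types, 5 fibroblast markers had means of -0.01 to 0.41 in WT, -0.57 to 0.22 in p27-/- and -0.49 to 0.23 in p27-/-;Sox2+/- samples, with 2 of them lower in p27-/-, and 5 endothelial markers had means of -0.07 to 0.37, -0.34 to -0.02 and -0.30 to 0.18, with 1 lower in each mutant. For 5 tested pituitary stem cell markers the means were -0.05 to 0.16 in WT, -0.22 to -0.04 in p27-/- and -0.05 to 0.05 in p27-/-;Sox2+/- samples, and 0 passed. Macrophage markers (-0.22 to 0.50, -0.04 to 0.02 and -0.33 to 0.05) and red blood cell markers (-0.58 to 1.12, -1.12 to 1.73 and -1.17 to 0.83) passed in neither mutant. The means of 6 melanotroph markers were -0.19 to 0.11 in WT, 0.02 to 0.18 in p27-/- and -0.05 to 0.02 in p27-/-;Sox2+/- samples, with 1 higher and 1 lower in p27-/- and 1 lower in p27-/-;Sox2+/- samples. Of the anterior lobe markers 1 was lower in each mutant, and of the posterior lobe markers 0 passed. Over all tested genes 4.62% fell in p27-/- and 1.88% in p27-/-;Sox2+/- samples. The part of cell composition in the differences of the replication genes was not tested.

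The library kit does not mark strand, so reads of an overlapping gene can enter a value. Among the genes that rose, Ticrr overlaps Kif7, Rfc4 overlaps Eif4a2, and Clspn and Tipin overlap small or predicted genes in the annotation. Mcm2, Mcm3, Mcm6, Orc6, Rfc3, Rrm1 and Rrm2 overlap none. Of the genes that did not pass, Pcna and Tyms have copies named as pseudogenes, which can share their reads.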

How the data were processed

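RNA of dissected IL was sequenced in bulk from 10 samples, 4 WT, 3 p27-/- and 3 p27-/-;Sox2+/-, grouped by the genotype in their labels. The authors aligned the reads with STAR (2.5.2a per the submitters' processing notes), counted them per gene without strand with RSEM (1.3.30), using the Ensembl transcripts of mouse GRCm38, and normalized the counts with DESeq2 (1.18.1). The authors deposited log2 values for 29527 genes. Which log2 transformation was used is not given in the sources used here. Genes with a mean under 10 on the linear scale vary little in the table (median SD 0.036), and none of them was tested. No counts or depths are in the table, and its column means are 4.345 to 4.367. The effect of depth on the precision can therefore not be judged. The number of samples also limits the precision, and the p-values measure the spread between these samples.

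Genes with a mean of at least 3.32 (10 on the linear scale), 17268 in all, were fitted with limma 3.58.1 in R 4.3.3 (1 fit of all samples, with empirical Bayes variances that follow a trend with level). P-values were adjusted by the Benjamini-Hochberg method over all tested genes, with a threshold of 0.05, and no pseudocount was added. On simulated data with 200 of 17268 genes changed for p27-/- against WT, 35% of log2 changes of 0.5 and 93% of changes of 1 were recovered. The 53 genes and the lists were chosen with earlier results of these data known. Genes are named with all values where they passed the threshold in either mutant or had the smallest or largest p of their role in p27-/- against WT. Orc1, Gmnn, Pcna and Prim1 were added after their values were seen. Symbols came from a gene name table (22709 identifiers matched), and Ticrr was found through a RefSeq synonym. Promoter windows of 300 bases are from RefSeq for GRCm38.p6. Alternatives left out the filter, raised it to a mean of 50, fitted the compared groups alone, dropped the trend, weighted the samples, rescaled the values (by medians or by quantile normalization), added a replicate block or Xist, or left out each sample in turn. Calculations used Python 3.11.15, numpy 2.4.6, pandas 2.3.3 and matplotlib 3.10.9.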

Additional observations from a re-analysis of the deposited data

Results flagged for a closer look

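In 6 of 54 measures, 1 of the 4 WT samples stood apart from the other WT samples by a gap, as a share of the group's range, above Dixon's critical value for 4 samples at a level of 95%. Chance flags about 1 in 20 groups, or 2.7 of 54. WT replicate 3 was the sample for Orc1 (gap share 0.857; 5.52 against 5.18 to 5.23), Orc6 (0.874; 7.29 against 7.75 to 7.81) and Cdt1 (0.874; 4.15 against 4.51 to 4.57), being high for Orc1 and low for the other two. WT replicate 1 was high for Gins3 (0.960; 5.32 against 5.26 to 5.27) and for Rfc5 (0.859; 7.53 against 7.32 to 7.35). WT replicate 2 was high for Pold3 (0.836; 8.47 against 8.19 to 8.24).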

How the results depend on the processing

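In p27-/- against WT the count of 11 replication genes was 5 with no filter, 5 with only the 2 groups compared and 3 with the replicate block, and 3 to 12 with a library left out. The 1343 calls over all tested genes became 831, 807 and 595 in those settings, and 402 to 1707 with a library left out. The median difference of 0.274 was 0.323 over the 36 genes with a mean of at least 50. In p27-/-;Sox2+/- against WT the count of 3 was 1 at a mean of at least 50, 6 with array weights and 0 with the replicate block, and 0 to 3 with a library left out. The 468 calls over all genes became 260 with only the 2 groups, 1240 with array weights and 209 with the block, and 79 to 656 with a library left out. The median of 0.198 was 0.249 at a mean of at least 50, 0.237 with quantile normalization, and 0.163 to 0.240 with a library left out. Between the mutants no replication gene passed in any setting. The 25 calls over all genes there became 6 with no filter, 45 with only the 2 groups, 8 with no trend, 283 with array weights, 15 with quantile normalization and 2 with the block, and 0 to 41 with a library left out. The median of -0.095 was -0.107 to -0.066 with a library left out. WT replicate 4 has no sample of the same number in the mutants, so with the block it does not enter the differences. They equal those without WT replicate 4 (median 0.278 in p27-/- and 0.209 in p27-/-;Sox2+/- against WT). Beyond that, and fewer samples or fewer genes in the fit, the cause of these changes was not tested.

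The labels do not say whether the replicate numbers pair the samples. Deviations of same-numbered samples correlated at -0.238 to 0.182, and 1 of 9 samples correlated best with its own number. With groups of 3 or 4 samples such correlations cannot decide whether samples were paired. Signs turned for genes near 0 and not called, in p27-/- against WT: Pole2 was 0.032 with quantile normalization, and Mcm10 and Rfc1 were -0.034 and -0.007 with the block. The latter values are those of the fit without WT replicate 4. With a library left out Mcm10 ranged from -0.034 to 0.182, Orc4 from -0.080 to 0.041, Pole2 from -0.107 to 0.047 and Rfc1 from -0.007 to 0.098. Of 463 single-gene values in other settings, 342 kept direction and side of the threshold, 101 lost and 10 gained a call, and 10 changed sign.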
